A study of Homo sapiens with 9 samples.

Results

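The genes described here are 10 genes that belong to, or respond to, signalling by transforming growth factor beta (TGF-beta) and by the bone morphogenetic proteins (BMPs). They are *TGFB1*, *TGFB2*, *TGFBI*, *SMAD3*, *SMAD6*, *SMAD7*, *SKIL*, *ID1*, *ID2* and *ID3*. They were chosen by name for their place in the pathway, with earlier results of these data known, and no threshold on their values was used. They are 10 of the 60664 genes in the deposited count tables, and all 10 had enough reads to be among the 18264 genes tested. The study asked how the viscosity of the fluid around cells changes their behaviour, and whether the calcium channel TRPV4 takes part. RNA was sequenced from MDA-MB-231 cells, a human triple-negative breast cancer line, in 3 groups of 3 samples. SC cells, which carried a non-targeting scramble hairpin and which the sample labels call WT, were kept in medium of 0.77 cP (baseline viscosity) or of 8 cP (elevated viscosity). shTRPV4 cells, which carried a short hairpin RNA against *TRPV4* (TRPV4 knockdown), were kept at 8 cP. Per the paper's methods viscosity was raised with methylcellulose, or alternatively with dextran or polyvinylpyrrolidone. Its RNA sequencing methods do not name the additive, whose effects cannot be told apart from those of viscosity here. All samples were collected on day 6, and all cells had been transduced with a lentiviral hairpin vector. The knockdown rests on stable expression of a hairpin, and shTRPV4 cells at 0.77 cP were not analysed here, so the response to viscosity was measured only in SC cells. Per the paper's methods a single hairpin sequence against *TRPV4* served these samples. Other effects of that hairpin or cell line cannot be told apart from loss of *TRPV4*.

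TGF-beta and BMP ligands bind pairs of serine/threonine kinase receptors at the cell surface. Receptors for TGF-beta and activin phosphorylate SMAD2 and SMAD3, receptors for BMPs phosphorylate SMAD1, SMAD5 and SMAD9, and both kinds of SMAD enter the nucleus with SMAD4. The target genes include the pathway's own inhibitors, *SMAD6*, *SMAD7* and *SKIL*, and the *ID* genes, classical BMP targets whose products bind basic helix-loop-helix transcription factors and keep them off DNA. In breast cancer cells TGF-beta is best known for its part in invasion and in the mesenchymal state. The cells' identity was checked by markers. *VIM*, *CD44*, *KRT8*, *KRT18* and *ANXA1* were abundant, and *ESR1*, *PGR* and *CDH1* were at or near 0 in every library. *SPARC* was at or below 1.63 CPM, low for a mesenchymal line, and *EPCAM* (16.9 to 19.4 CPM) and *GATA3* (11.9 to 16.4 CPM) were not near 0. Total counts ranged from 64571681 to 103518036 per library. The share of counts on mitochondrial genes was 2.04 to 2.58% in SC cells and 3.28 to 3.40% in shTRPV4 cells, and its part in the differences of the knockdown was not tested. *TRPV4* itself had 40, 28 and 54 counts in SC cells at 0.77 cP, 64, 45 and 24 in SC cells at 8 cP and 7, 1 and 13 in shTRPV4 cells, which sets it lower in each library labelled as knockdown than in each SC library.

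SMAD complexes recognise the short sequence GTCT, called the SMAD box, and its palindrome GTCTAGAC. The sequences below show where such boxes lie before the start of 5 of the genes. The start was taken from the canonical transcript of GENCODE release 44 on GRCh38 (hg38), and the distances depend on that choice. Boxes on either strand (GTCT or AGAC) are in capitals, as is GGCGCC where it was searched together with a box. The first 2 runs are the 250 bases just before the start of *ID3* (chr1:23559502-23559751, minus strand) and of *SMAD6* (chr15:66701986-66702235, plus strand). They are shown because both genes were lower in shTRPV4 cells and because the *SMAD6* run holds the palindrome near its end, beginning 12 bases before the start. The third is the stretch of the *ID2* promoter region that holds a box on each strand (chr2:8681945-8681972, plus strand), beginning 103 bases before the start with its flanks left aside. The fourth is the palindrome of *SMAD7*, which lies 1260 bases before its start (chr18:48952210-48952233, minus strand). The fifth is a stretch of *SKIL*, 558 bases before the start (chr3:170357149-170357179, plus strand), in which GGCGCC is followed after 5 bases by GTCT.
ID3: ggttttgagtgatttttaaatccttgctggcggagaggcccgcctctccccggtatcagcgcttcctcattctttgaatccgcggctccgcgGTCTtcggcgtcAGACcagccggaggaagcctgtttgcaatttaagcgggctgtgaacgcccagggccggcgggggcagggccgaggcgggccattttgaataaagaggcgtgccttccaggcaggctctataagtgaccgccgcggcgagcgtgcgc
SMAD6: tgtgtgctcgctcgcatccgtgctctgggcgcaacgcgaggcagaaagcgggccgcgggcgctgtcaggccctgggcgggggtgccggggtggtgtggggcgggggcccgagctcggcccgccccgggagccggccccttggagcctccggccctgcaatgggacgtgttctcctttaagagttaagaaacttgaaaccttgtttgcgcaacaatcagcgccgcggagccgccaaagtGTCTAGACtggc
ID2: gcccgctcGTCTtgatAGACgtgccacc
SMAD7: gacagggtGTCTAGACggccacgt
SKIL: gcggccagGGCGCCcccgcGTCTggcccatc

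Both strands were searched in the 2000 bases before and the 500 bases after 20028 starts of protein-coding genes. The palindrome GTCTAGAC, which is a GTCT joined to its reverse complement, was present at 1.42% of all starts, and among the 10 genes at *SMAD6* and *SMAD7*, the inhibitory SMADs. GGCGCC followed after 5 bases by GTCT was present at 0.634% of all starts and among the 10 genes at *SKIL*. In the 250 bases before the start, single boxes are common, since 75.3% of all starts have at least 1. *ID1* had 3 of them, *ID2* 2 and *ID3* 2. A GTCT followed within 10 bases by AGAC, a spacing chosen after these sequences were seen, was present at *ID2*, *ID3* and *SMAD6* and at 2.08% of all starts. These matches describe the letters of the genome and say nothing of binding in these cells.

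Elevated viscosity lowered 3 of the 10 genes in SC cells, in a comparison in which 19.3% of all genes tested changed. The knockdown of *TRPV4* at 8 cP lowered 7 and raised 2, in a comparison in which 20.0% of all genes tested changed. With the knockdown the *ID* genes and *SMAD6* moved the most, and with viscosity *ID2* and *ID3*. *ID2*, the least abundant of the *ID* genes among the 10, fell with viscosity to 45.4% of its level at 0.77 cP and was at 29.2% of it in shTRPV4 cells. *ID3* went to 69.1% and 47.7%, and *SMAD6* stood at 81.1% and 45.7%. *ID1* stood at 96.4% in SC cells at 8 cP and fell to 62.0% in shTRPV4 cells. *TGFB2* and *SMAD3* stayed within 91.9% and 107% of the level of SC cells at 0.77 cP.

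Levels are given as CPM, counts per 1000000 counts on the tested genes of the library, after TMM scaling, which allows for differences in RNA composition. Differences are log2 fold changes from edgeR's quasi-likelihood test, fitted to all 9 libraries, and adjusted p-values are Benjamini-Hochberg values over the 18264 genes. A gene is said to have risen or fallen where that value was below 0.05. The sample labels do not say whether replicates were separate cultures, so p-values measure the spread between these samples, which may be technical. With 3 samples against 3, an exact two-sided permutation test of a single gene cannot give a p below 0.1. The last comparison sets the outer groups against each other, shTRPV4 cells at 8 cP minus SC cells kept at 0.77 cP, and so combines viscosity and knockdown. The 3 comparisons share libraries, since each group enters a pair of them. Groups are said not to overlap where each library of 1 group lay on the same side of each library of the other. Of all genes tested, 38.4% did not overlap with viscosity, 36.3% with the knockdown and 50.6% between the outer groups. Of the 10 genes, 6, 9 and 7 did not overlap in these comparisons. In a bulk sample, a lower level in each cell and fewer cells that express the gene cannot be told apart.

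**Figure D1:**
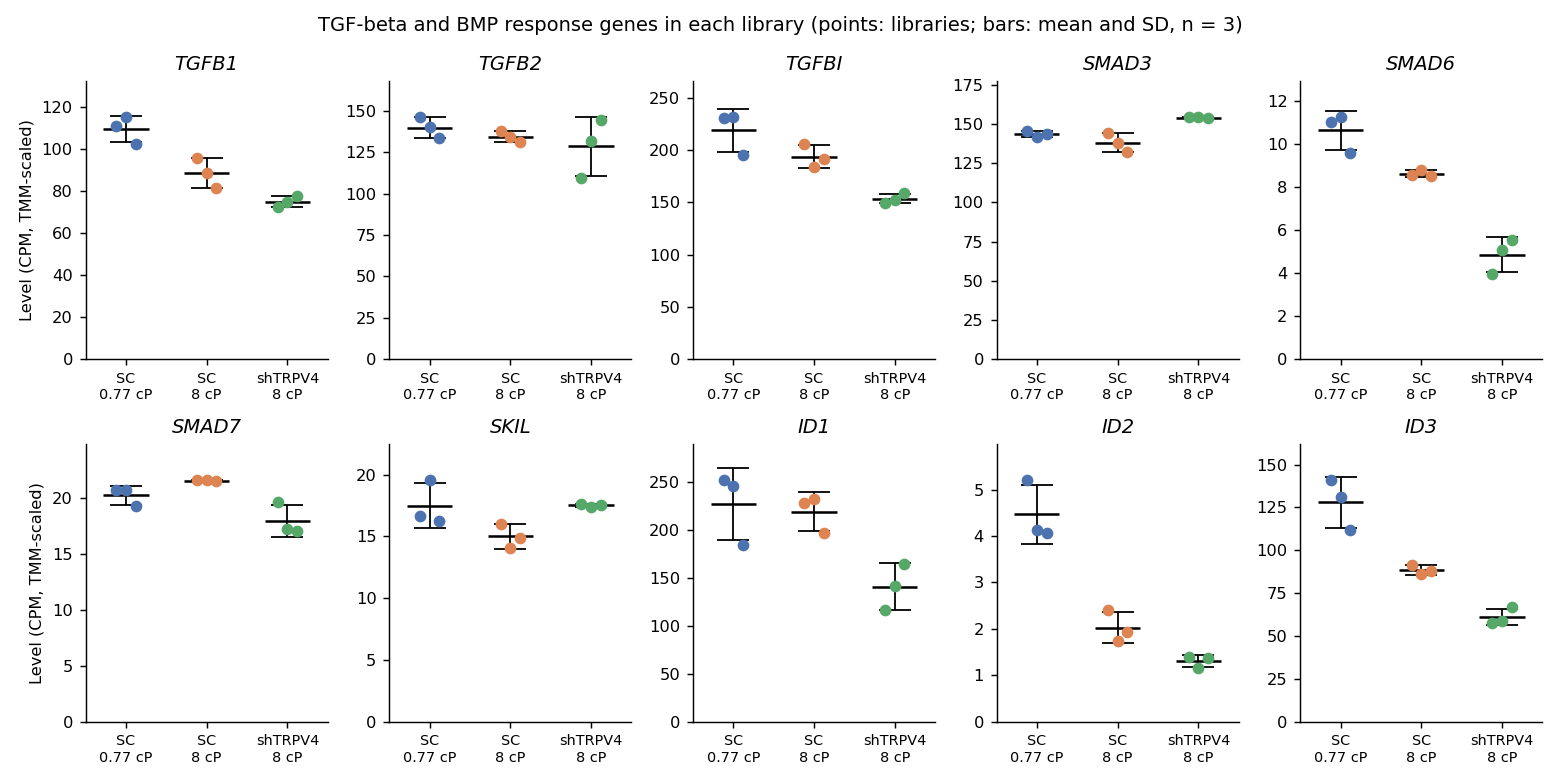
Level of each of the 10 genes (vertical axis, CPM after TMM scaling, from 0) in the 3 libraries of each group (points), with the group mean and SD (bars, n = 3). *ID2*, *ID3*, *SMAD6* and *TGFB1* were ordered downward from left to right with no overlap. *ID1* and *TGFBI* were lowest in shTRPV4 cells, and *TGFB2* overlapped between all 3 groups. Of all genes tested, 38.4% had no overlap with viscosity, 36.3% with the knockdown and 50.6% between the outer groups.

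The ligands are the secreted signals that open the pathway. *TGFB1* (ENSG00000105329; chromosome 19, 41301587 to 41353922, minus strand) encodes TGF-beta 1, which cells secrete in a latent form. It was at 110.6, 114.9 and 102.4 CPM in SC cells at 0.77 cP (replicates 1 to 3, the order kept below). In SC cells at 8 cP it was at 95.5, 88.5 and 81.3 CPM, and in shTRPV4 cells at 72.1, 74.7 and 77.3 CPM. The 3 groups did not overlap, and the order of the groups held for every library. *TGFB1* fell by 0.30 on the log2 scale with viscosity (standard error 0.0592, edgeR adjusted p = 0.00328) and by a further 0.24 in shTRPV4 cells (standard error 0.0594, edgeR adjusted p = 0.00915). It fell by 0.55 between the outer groups (standard error 0.0595, edgeR adjusted p = 3.9e-06). Without replicate 1 of SC cells at 8 cP, the highest library of its group, the difference of the knockdown was -0.19 and its edgeR adjusted p 0.0605. The gene shares 215 exon bases with *HNRNPUL1* on the other strand, and the strand setting of the counting is not given in the sources used here, so that reads of the other gene may be included.

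*TGFB2* (ENSG00000092969; chromosome 1, 218345336 to 218444619, plus strand) encodes TGF-beta 2, a ligand that needs betaglycan to bind its receptors well. Its level was 146, 140 and 133 CPM in SC cells at 0.77 cP, 138, 134 and 131 CPM in SC cells at 8 cP, and 109, 132 and 145 CPM in shTRPV4 cells. Of the shTRPV4 libraries, 1 lay below every SC library and the other 2 lay within their range, with a coefficient of variation of 13.9% against 2.46% in SC cells at 8 cP. No difference passed the test. The log2 fold change was -0.06 with viscosity (95% interval -0.22 to 0.10), -0.06 with the knockdown (-0.22 to 0.09) and -0.12 between the outer groups (-0.28 to 0.04). The last of these had an edgeR adjusted p of 0.0204 when replicate 3 of the shTRPV4 cells was left out. *TGFB2* shares 1371 exon bases with *TGFB2-OT1* on its own strand and 701 with *TGFB2-AS1* on the other, so its counts are uncertain to that extent.

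*SMAD3* (ENSG00000166949; chromosome 15, 67063763 to 67195173, plus strand) encodes the SMAD that carries the TGF-beta and activin signal and binds DNA directly. It was at 145, 142 and 144 CPM in SC cells at 0.77 cP, and at 145, 138 and 132 CPM in SC cells at 8 cP. In shTRPV4 cells it was at 154.3, 154.4 and 153.9 CPM, above every SC library. *SMAD3* rose by 0.16 with the knockdown (standard error 0.0428, edgeR adjusted p = 0.0170), a change of 11.6%. With viscosity the log2 fold change was -0.06 (95% interval -0.15 to 0.03). The log2 fold change between the outer groups was 0.10 (95% interval 0.01 to 0.19, edgeR adjusted p = 0.0705). The call of the knockdown was lost when replicate 2 or 3 of SC cells at 8 cP or replicate 2 of the shTRPV4 cells was left out (edgeR adjusted p = 0.0745, 0.0911 and 0.0575). An unnamed gene on the opposite strand shares 182 exon bases with *SMAD3*.

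The inhibitory SMADs close feedback loops. SMAD6 acts mainly on BMP receptors and on SMAD1, and SMAD7 on the receptors of both branches. *SMAD6* (ENSG00000137834; chromosome 15, 66702236 to 66782849, plus strand) was at 11.0, 11.2 and 9.60 CPM in SC cells at 0.77 cP, 8.56, 8.79 and 8.51 CPM in SC cells at 8 cP, and 3.95, 5.08 and 5.53 CPM in shTRPV4 cells. The groups did not overlap. *SMAD6* fell by 0.83 with the knockdown (standard error 0.107, edgeR adjusted p = 6.9e-05), the largest fall among the 10 genes in that comparison. With viscosity its log2 fold change was -0.30 (edgeR adjusted p = 0.0519, standard error 0.102), just short of passing. *SMAD6* fell by 1.13 between the outer groups (standard error 0.107, edgeR adjusted p = 1.0e-06). It shares no exon bases with another gene.

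*SMAD7* (ENSG00000101665; chromosome 18, 48919853 to 48950965, minus strand) was at 20.7, 20.7 and 19.2 CPM in SC cells at 0.77 cP and at 21.6, 21.5 and 21.5 CPM in SC cells at 8 cP. In shTRPV4 cells it was at 19.6, 17.2 and 17.1 CPM. All shTRPV4 libraries lay below all SC libraries at 8 cP, and 1 of them lay above the lowest library of SC cells at 0.77 cP. With the knockdown *SMAD7* fell by 0.26 (standard error 0.0640, edgeR adjusted p = 0.00946), a change of -16.6% beside -43.7% for *SMAD6*, and the 95% intervals of the 2 log2 fold changes did not overlap (-0.40 to -0.13 and -1.06 to -0.60). With viscosity the log2 fold change was 0.09 (95% interval -0.04 to 0.23, edgeR adjusted p = 0.346). The outer groups differed by -0.17 (edgeR adjusted p = 0.0437), but this call was kept on leaving out 2 of the 9 libraries and lost on leaving out any of the other 7.

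*SKIL* (ENSG00000136603; chromosome 3, 170357342 to 170396835, plus strand) encodes SnoN, a repressor that binds SMAD complexes and is itself a target of TGF-beta. It was at 16.7, 19.6 and 16.3 CPM in SC cells at 0.77 cP, 16.04, 14.1 and 14.9 CPM in SC cells at 8 cP, and 17.6, 17.4 and 17.5 CPM in shTRPV4 cells. SC cells at 8 cP lay below both other groups. With viscosity it stood 0.22 lower on the log2 scale (log2 fold change -0.22, edgeR adjusted p = 0.0521). With the knockdown *SKIL* rose by 0.22 (standard error 0.0746, edgeR adjusted p = 0.0466). The outer groups differed by 0.0047 (95% interval -0.15 to 0.16). The rise was close to the threshold: it was lost with upper quartile scaling, where the edgeR adjusted p was 0.0532, and on leaving out any of 6 of the 9 libraries. The highest edgeR adjusted p was 0.201, without replicate 2 of SC cells at 8 cP.

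*TGFBI* (ENSG00000120708; chromosome 5, 136028988 to 136063818, plus strand) encodes an extracellular matrix protein that was named for its induction by TGF-beta. It was at 231, 231 and 195 CPM in SC cells at 0.77 cP, 206, 184 and 191 CPM in SC cells at 8 cP, and 150, 152 and 159 CPM in shTRPV4 cells. Every shTRPV4 library lay below every SC library, and the SC groups overlapped. *TGFBI* fell by 0.34 with the knockdown (standard error 0.0624, edgeR adjusted p = 0.00143) and between the outer groups it fell by 0.51 (standard error 0.0625, edgeR adjusted p = 1.2e-05). With viscosity the log2 fold change of -0.18 did not pass (edgeR adjusted p = 0.0579). Without replicate 3 of SC cells at 0.77 cP, the lowest library of its group, this value was -0.24 with an edgeR adjusted p of 0.00441.

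The *ID* genes encode inhibitors of DNA binding, which lack a DNA-binding part of their own and hold basic helix-loop-helix factors in inactive pairs. *ID1* (ENSG00000125968; chromosome 20, 31605283 to 31606515, plus strand) was at 252, 246 and 184 CPM in SC cells at 0.77 cP, 228, 233 and 196 CPM in SC cells at 8 cP, and 116, 142 and 165 CPM in shTRPV4 cells. The SC groups overlapped almost fully, and each shTRPV4 library lay below each SC library. With viscosity the log2 fold change was -0.05 (95% interval -0.30 to 0.20, edgeR adjusted p = 0.796). With the knockdown *ID1* fell by 0.64 (standard error 0.118, edgeR adjusted p = 0.00147), and between the outer groups it fell by 0.69 (standard error 0.119, edgeR adjusted p = 0.000250). *ID1* varied more between replicates than the other 9 genes in shTRPV4 cells, with a coefficient of variation of 17.3%.

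*ID2* (ENSG00000115738; chromosome 2, 8678845 to 8684461, plus strand) was the one of the 10 genes that changed the most with viscosity. Its counts were 491, 265 and 419 in SC cells at 0.77 cP, 237, 169 and 176 in SC cells at 8 cP, and 127, 91 and 124 in shTRPV4 cells. These correspond to 5.21, 4.13 and 4.07 CPM, to 2.40, 1.75 and 1.94 CPM, and to 1.39, 1.16 and 1.37 CPM. The 3 groups did not overlap. *ID2* fell by 1.14 with viscosity (standard error 0.140, edgeR adjusted p = 9.7e-05), which is a loss of 54.7% of its level, and by 0.63 with the knockdown (standard error 0.153, edgeR adjusted p = 0.00900). It fell by 1.77 between the outer groups (standard error 0.148, edgeR adjusted p = 2.9e-07). Without replicate 1 of SC cells at 8 cP the difference of the knockdown was -0.49 with an edgeR adjusted p of 0.0557. *ID2* shares 145 exon bases with *ID2-AS1* on the other strand.

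*ID3* (ENSG00000117318; chromosome 1, 23557926 to 23559501, minus strand) was at 141, 131 and 112 CPM in SC cells at 0.77 cP, 91.3, 86.0 and 88.1 CPM in SC cells at 8 cP, and 57.8, 58.7 and 66.7 CPM in shTRPV4 cells. The groups were fully separate, and the gene shares no exon bases with another. *ID3* fell by 0.53 with viscosity (standard error 0.0725, edgeR adjusted p = 0.000269) and by 0.53 with the knockdown (standard error 0.0732, edgeR adjusted p = 0.000120). *ID3* fell by 1.07 between the outer groups (standard error 0.0735, edgeR adjusted p = 4.2e-08). Both steps passed in all 16 alternative fits.

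**Figure D2:**
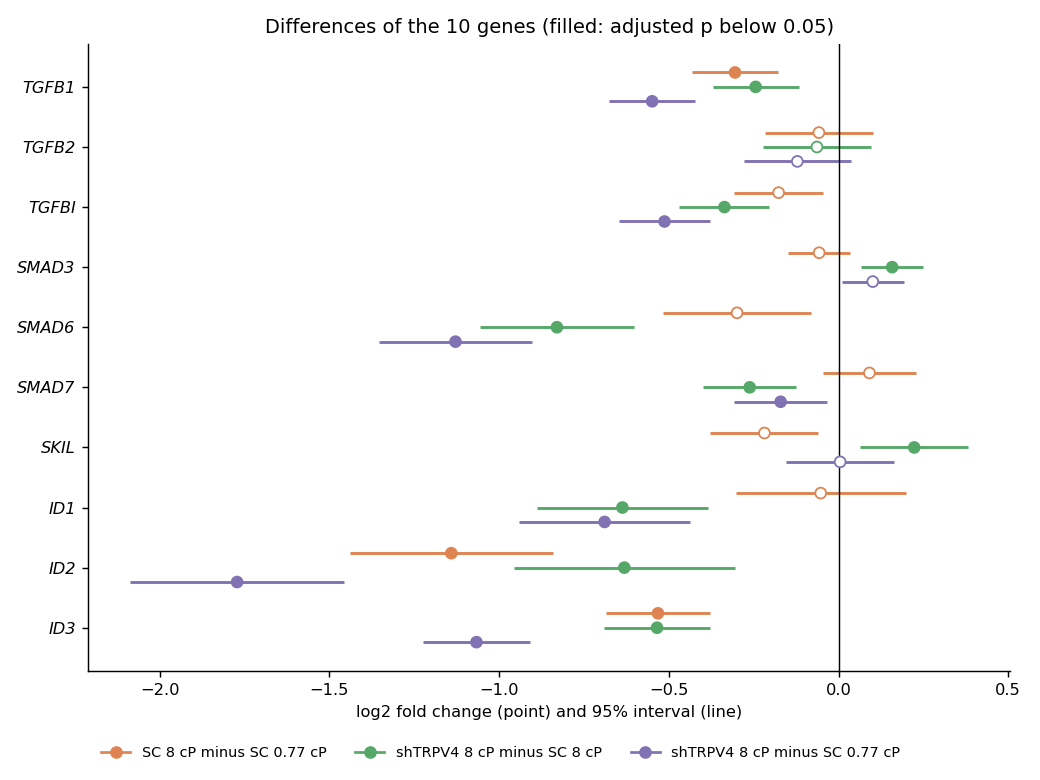
Log2 fold change (horizontal axis) with its 95% interval for each of the 10 genes in the 3 comparisons, filled where the adjusted p was below 0.05. The intervals of *TGFB1*, *TGFBI*, *SMAD6*, *ID2* and *ID3* lie below 0 in all 3 comparisons, with *TGFBI* and *SMAD6* not filled for viscosity. Those of *TGFB2* cover 0 in all 3, and *SMAD3* and *SKIL* lie above 0 in the comparison of the knockdown.

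Counted over the 10 genes, 3 passed the test with viscosity, 0 higher and 3 lower (*TGFB1*, *ID2* and *ID3*). Of all genes tested 19.3% passed in that comparison, 9.57% higher and 9.69% lower. With the knockdown at 8 cP, 9 of the 10 passed, 2 higher (*SMAD3* and *SKIL*) and 7 lower, where 20.0% of all genes passed, 9.02% higher and 11.0% lower. In the comparison of the outer groups 7 passed, 0 higher and 7 lower, where 42.4% of all genes passed, 20.4% higher and 22.0% lower. The median log2 fold change of the 10 genes was -0.20, -0.30 and -0.53 in this order, against -0.0065, 0.00064 and -0.011 for all genes tested. The count for viscosity was the least firm. *SMAD6*, *SKIL* and *TGFBI* had edgeR adjusted p-values of 0.0519, 0.0521 and 0.0579 there, and all 3 passed, making 6 of 10, with DESeq2's Wald test, with edgeR's likelihood ratio test and with no filter on low counts. It was also 6 of 10 without replicate 3 of SC cells at 0.77 cP or replicate 1 of shTRPV4 cells, and 5 without replicate 1 of SC cells at 8 cP.

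Levels were compared between genes as CPM per kilobase of exon. The length was that of the union of all annotated exons, 3264 bases for *TGFB1*, 7717 for *TGFBI* and 8556 for *SMAD6*. This union can be longer than the transcript in the cells, by an amount that differs between genes. The order between genes therefore depends on the annotation. In SC cells at 0.77 cP, *ID1* was the highest at 184 ± 30.5 (SD, n = 3), followed by *ID3* at 85.5 ± 9.85. The ligand and matrix genes came next, *TGFB1* at 33.5 ± 1.95, *TGFBI* at 28.4 ± 2.67 and *TGFB2* at 23.1 ± 1.06. *SMAD3* stood at 14.4 ± 0.165 and *SMAD7* at 5.13 ± 0.216. *SKIL* (2.15 ± 0.222) and *ID2* (2.02 ± 0.289) overlapped, and *SMAD6* was the lowest at 1.24 ± 0.105. The order changed in its lower part in SC cells at 8 cP, where *ID2* (0.916 ± 0.150) came to lie with *SMAD6* (1.01 ± 0.0171) at the bottom and the libraries of *TGFB1* and *TGFBI* overlapped. In shTRPV4 cells *TGFB1* (22.9 ± 0.792), *TGFB2* (21.3 ± 2.95) and *TGFBI* (19.9 ± 0.592) formed a chain of overlapping levels, and *ID2* and *SMAD6* again overlapped.

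Replicates of a group differed in the same direction for many of the 10 genes. In SC cells at 0.77 cP, replicate 3 had the lowest level of 9 of the 10 genes, *SMAD3* being the exception. In SC cells at 8 cP, replicate 1 had the highest level of 8 genes, all but *ID1* and *SMAD6*. In shTRPV4 cells, replicate 1 was the lowest and replicate 3 the highest for the same 6 genes, *ID1*, *ID3*, *SMAD6*, *TGFB1*, *TGFB2* and *TGFBI*. These are counts of values and not tests.

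A wider set of 130 genes of the pathway, arranged in 9 lists by role, was read from the same fit, and 104 of them were tested. With viscosity 32 passed, 8 higher and 24 lower, which is 30.8% beside 19.3% of all genes. With the knockdown 46 passed, 14 higher and 32 lower, which is 44.2% beside 20.0% of all genes. Between the outer groups 62 passed, 16 higher and 46 lower, which is 59.6% beside 42.4% of all genes. The count for viscosity fell to 19 without replicate 1 of SC cells at 0.77 cP. The lists were chosen with earlier results of these data known. The 10 genes are among the 130, so the share of each list that holds any of them repeats their result in part. The genes named below are, besides the 10, the 3 of each list whose adjusted p was lowest.

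**Figure D3:**
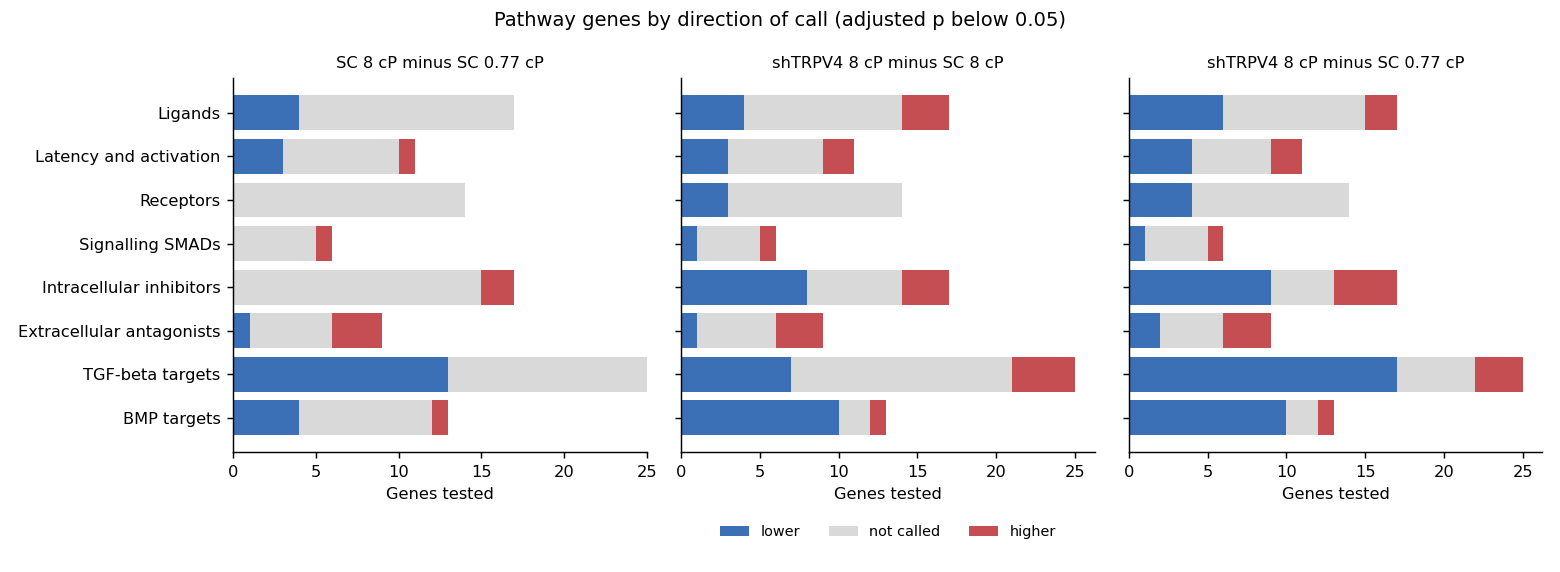
Number of genes tested in 8 of the lists (horizontal axis) that were lower, higher or not called at an adjusted p below 0.05, with 1 panel for each comparison. With the knockdown, 10 of 13 BMP targets were lower and 1 higher, and with viscosity 13 of 25 TGF-beta targets were lower and 0 higher.

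Among 17 ligands, viscosity lowered 4 and raised 0, a share of 23.5% and near the 19.3% of all genes. *GDF15*, a stress-induced member of the family, fell by 0.97 (edgeR adjusted p = 0.000674), *BMP2* by 0.81 (edgeR adjusted p = 0.00716) and *AMH* by 0.34 (edgeR adjusted p = 0.0350). With the knockdown 4 ligands fell and 3 rose (41.2%, against 20.0% of all genes). *INHBA*, the subunit of activin A, rose from 1.69 ± 0.205 to 3.21 ± 0.341 CPM (SD, n = 3), by 0.92 on the log2 scale (edgeR adjusted p = 0.000265). *AMH* rose by 0.49 (edgeR adjusted p = 0.00420) and *BMP8B* fell by 0.46 (edgeR adjusted p = 0.00185). *BMP4*, named after its values were seen, was at 251 ± 12.8, 264 ± 2.02 and 306 ± 31.5 CPM (SD, n = 3) in the 3 groups and was 0.22 higher with the knockdown (edgeR adjusted p = 0.0229). Between the outer groups 6 ligands fell and 2 rose (47.1%, against 42.4% of all genes), with *TGFB3*, the third TGF-beta, at -0.81 (edgeR adjusted p = 9.5e-05), *GDF15* at -1.13 and *BMP8B* at -0.63.

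Latent TGF-beta is held in the matrix by some of the LTBP proteins and released by integrins and thrombospondin. Of 11 genes listed for latency and activation, 1 was higher and 3 lower with viscosity. With the knockdown 2 were higher and 3 lower, and between the outer groups 2 were higher and 4 lower. The shares were 36.4%, 45.5% and 54.5%, against 19.3%, 20.0% and 42.4% of all genes. *LTBP4* fell by 0.33 with viscosity (edgeR adjusted p = 0.00184) and *LTBP2* by 0.30 (edgeR adjusted p = 0.00895). *ITGAV*, the alpha chain of the integrins that release TGF-beta, rose by 0.20 with viscosity (edgeR adjusted p = 0.0159) and by 0.28 with the knockdown (edgeR adjusted p = 0.00137). With the knockdown *LTBP1* fell by 0.34 and *THBS1*, which encodes thrombospondin 1, rose by 0.30 (edgeR adjusted p = 0.00137 and 0.00191). *ITGAV*, *LTBP4* and *THBS1* led the third comparison, at 0.47, -0.42 and 0.34.

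Of 14 receptors and co-receptors, 0 passed with viscosity. The nearest were *ENG* at -0.60, *ACVR1* at 0.19 and *ACVR2B* at -0.18 (edgeR adjusted p = 0.0533, 0.0576 and 0.0710). With the knockdown 3 were lower and 0 higher, a share of 21.4% beside 20.0% of all genes. *BMPR2*, the type II receptor for BMPs, fell by 0.34 (edgeR adjusted p = 0.000990), *ACVR2B* by 0.33 (edgeR adjusted p = 0.00283) and *TGFBR2*, the type II receptor for TGF-beta, by 0.23 (edgeR adjusted p = 0.00131). Between the outer groups 4 were lower and 0 higher, a share of 28.6% beside 42.4% of all genes, with *ACVR2B* at -0.50, *BMPR2* at -0.37 and *TGFBR2* at -0.19.

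Of the 6 signalling SMADs, 1 passed with viscosity, 2 with the knockdown and 2 between the outer groups (16.7%, 33.3% and 33.3%, against 19.3%, 20.0% and 42.4% of all genes). *SMAD5*, which carries the BMP signal, rose by 0.21 with viscosity (edgeR adjusted p = 0.00386), while *SMAD2* (0.09) and *SMAD9* (-0.21) did not pass. With the knockdown *SMAD9* fell by 0.57 (edgeR adjusted p = 0.00268) and *SMAD3* rose, and *SMAD1* (-0.13) and *SMAD4* (-0.10) did not pass. Between the outer groups *SMAD9* fell by 0.77 and *SMAD5* rose by 0.25, and *SMAD4* (-0.08, edgeR adjusted p = 0.318) did not pass.

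Of 17 intracellular inhibitors, viscosity raised 2 and lowered 0. These were *NEDD4L*, a ubiquitin ligase, at 0.26 and *STRAP*, a partner of SMAD7, at 0.14 (edgeR adjusted p = 0.0122 and 0.0497), and the repressor gene *TGIF1* (-0.20, edgeR adjusted p = 0.0537) did not pass. The share called was 11.8%, beside 19.3% of all genes. The knockdown raised 3 and lowered 8 (64.7%, against 20.0% of all genes). *CTDSP2* and *CTDSP1*, SMAD phosphatases, fell by 0.32 and 0.24, and *SKI*, the relative of *SKIL*, fell by 0.28 while *SKIL* rose (edgeR adjusted p = 0.000100, 0.00166 and 0.00198). Between the outer groups 4 were higher and 9 lower (76.5%, against 42.4% of all genes), with *CTDSP2* at -0.39, *NEDD4L* at 0.49 and the pseudoreceptor gene *BAMBI* at -0.47.

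Extracellular antagonists bind ligands before they reach a receptor. Of 9 tested, 3 were higher and 1 lower with viscosity and likewise with the knockdown, and 3 were higher and 2 lower between the outer groups (44.4%, 44.4% and 55.6%, against 19.3%, 20.0% and 42.4% of all genes). *BMPER*, a secreted BMP-binding protein, was at 3.05, 4.04 and 4.53 CPM in SC cells at 0.77 cP, 6.43, 6.50 and 6.65 CPM in SC cells at 8 cP and 14.4, 14.8 and 15.3 CPM in shTRPV4 cells. It rose by 0.75 with viscosity (edgeR adjusted p = 0.000489) and by 1.18 with the knockdown (edgeR adjusted p = 1.5e-06). *NOG*, which encodes noggin, rose by 0.30 with viscosity (edgeR adjusted p = 0.00769), and *FSTL1* by 0.18 (edgeR adjusted p = 0.0162). With the knockdown *FSTL3*, an activin-binding follistatin relative, rose by 0.53 (edgeR adjusted p = 9.5e-07) and *NBL1* fell by 0.17 (edgeR adjusted p = 0.0166). Between the outer groups *BMPER*, *NOG* and *FSTL3* were higher by 1.94, 0.53 and 0.40.

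Of 25 TGF-beta targets, viscosity lowered 13 and raised 0 (52%, against 19.3% of all genes), and their median log2 fold change was -0.23. *SNAI2*, which encodes the mesenchymal transcription factor Slug, fell from 117 ± 5.01 to 41.8 ± 1.69 CPM (SD, n = 3), which is -1.49 on the log2 scale (edgeR adjusted p = 1.9e-11). *BHLHE40*, a transcriptional repressor, fell by 1.64 and *JUNB*, a subunit of AP-1, by 1.36 (edgeR adjusted p = 4.8e-08 and 5.6e-07). Both also respond to many other signals. With the knockdown 7 targets were lower and 4 higher (44%, against 20.0% of all genes), with a median of -0.13. *CDKN1A*, the cell cycle inhibitor p21, fell by 0.41 and *NEDD9*, a scaffold of adhesion signalling, by 0.68 (edgeR adjusted p = 8.9e-06 and 6.2e-05). The outer groups gave 17 lower and 3 higher (80%, against 42.4% of all genes), with *BHLHE40* at -2.00, *SNAI2* at -1.47 and *CDKN1A* at -0.89. The summed level of 4 fibroblast markers, 1 of which (*COL1A1*) is also in this list, was 38.65 to 47.33 CPM in SC cells at 0.77 cP, 25.13 to 29.64 in SC cells at 8 cP and 23.65 to 28.05 in shTRPV4 cells, with none at 0. *COL1A2* gave most of the sum. With viscosity *COL1A2*, *PDGFRB* and *COL1A1* fell, with log2 fold changes of -0.76, -0.51 and -0.35, and *LUM* (-0.13) did not pass. With the knockdown *LUM* rose by 1.09 (edgeR adjusted p = 0.000917), from 0.690 ± 0.0742 to 1.47 ± 0.189 CPM (SD, n = 3), and *COL1A1* (-0.18), *COL1A2* (-0.20) and *PDGFRB* (0.21) did not pass. The part of these markers in the result was not tested. Of the other cell types checked, the leukocyte markers summed to at most 0.343 CPM, and among the endothelial markers *VWF* and *CDH5* were at or below 0.186 CPM, while *PECAM1* ranged from 3.95 to 6.22, from 2.49 to 3.07 and from 1.98 to 2.40 CPM in the 3 groups.

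Of 13 BMP targets tested, viscosity lowered 4 and raised 1, and the knockdown lowered 10 and raised 1, with median log2 fold changes of -0.31 and -0.53. These are 38.5% and 84.6% of the list, beside 19.3% and 20.0% of all genes. In the comparison of the outer groups 10 were lower and 1 higher, with a median of -0.77 and a share of 84.6% beside 42.4% of all genes. *ID4*, the remaining *ID* gene, had 247, 192 and 261 counts in SC cells at 0.77 cP, 112, 107 and 95 in SC cells at 8 cP and 33, 37 and 33 in shTRPV4 cells. It fell by 1.30 with viscosity, by 1.46 with the knockdown and by 2.77 between the outer groups (edgeR adjusted p = 4.0e-05, 3.8e-05 and 9.9e-09). *HEY1*, a repressor shared with the Notch pathway, fell in all 3 comparisons, with log2 fold changes of -1.27 with viscosity, -1.04 with the knockdown and -2.31 between the outer groups (edgeR adjusted p = 0.00245, 0.0135 and 5.1e-06), at levels of 1.41 ± 0.0840, 0.585 ± 0.212 and 0.282 ± 0.0457 CPM (SD, n = 3). With the knockdown *BAMBI* fell by 0.31 (edgeR adjusted p = 0.00307), and *SMAD9* is both a carrier of the signal and one of the targets that fell. The 1 target that was higher in each comparison was *NOG*, which is a BMP target and a BMP antagonist. The 4 *ID* genes and *SMAD6* make up 5 of the 10 that fell with the knockdown. Of those that fell, *ID1*, *ID2*, *ID3*, *SMAD6* and *SMAD7* are among the 10 genes described first. The share of this list therefore repeats their result in part.

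**Figure D4:**
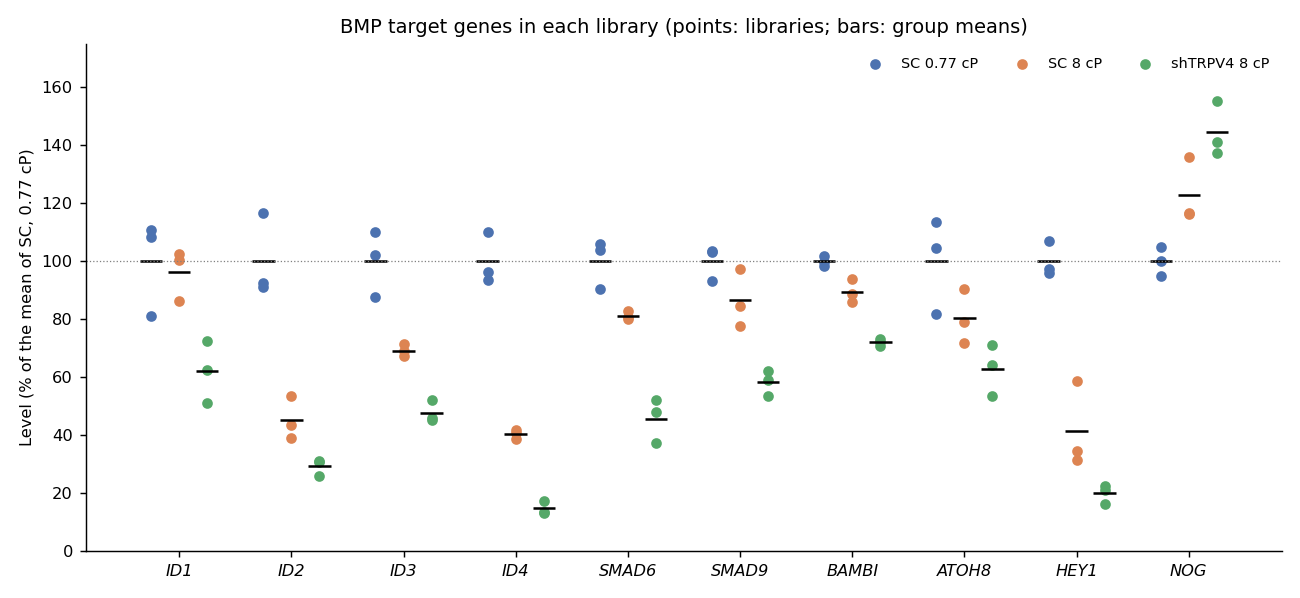
Level of 10 of the 13 BMP targets tested, in each library, as a percent of the mean of SC cells at 0.77 cP (vertical axis, from 0). Points are libraries and bars are group means. *SMAD7*, *MSX2* and *DLX2*, the rest of those tested, are not drawn. They stood at 106%, 77.1% and 66.7% in SC cells at 8 cP, and at 88.8%, 89.9% and 56.5% in shTRPV4 cells. *ID4*, *HEY1* and *ID2* had the lowest levels in shTRPV4 cells, at 14.7%, 20.0% and 29.2%, and *NOG* stood at 145%.

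The ID proteins act on the E proteins encoded by *TCF3*, *TCF4* and *TCF12*, of which 2 were tested. *TCF12* rose by 0.19 with viscosity (edgeR adjusted p = 0.0215) and was 0.26 higher between the outer groups (edgeR adjusted p = 0.000779). *TCF3* did not pass in any comparison (0.10, -0.0051 and 0.10).

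For each of the 9 genes that passed in at least 1 comparison, the tested gene with the closest pattern over the 9 libraries was found by the root mean square difference of their centred log2 CPM values, as a description with no test. It was *SEMA4B* for *TGFB1* (0.032), *CTSD* for *TGFBI* (0.034), *GRINA* for *SMAD3* (0.020), *CCNG2* for *SMAD6* (0.056), *SLC15A4* for *SMAD7* (0.044) and *NREP* for *SKIL* (0.046). For the *ID* genes it was *HLA-DRA* for *ID1* (0.071), *SOCS1* for *ID2* (0.20) and *SNCG* for *ID3* (0.050). The pattern of *ID2* thus had the most distant nearest gene, and its range over the libraries was 2.14 on the log2 scale. None of the 9 nearest genes was one of the 10.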

How the data were processed

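RNA of 9 samples, 3 in each of 3 groups, was sequenced by the authors from stranded poly(A) libraries as read pairs. Per the labels and the paper's methods, the authors mapped reads to GRCh38.p13 with HISAT2 2.2.1 and totalled the exon reads of each gene with HTSeq 0.13.5, and they deposited raw counts per gene. The strand option and sequencing batches are not given in the sources used here. Groups and replicate numbers come from the sample titles. The 10 genes and the 9 pathway lists were chosen with earlier results of these data known.

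Counts were analysed in R 4.3.3 with edgeR 4.0.16 (TMM scaling, filterByExpr, 18264 genes, 1 coefficient per group, quasi-likelihood test, Benjamini-Hochberg threshold 0.05). The common biological coefficient of variation was 0.0633. CPM per kilobase uses the union of exons in GENCODE release 44. The fit was tested on simulated data. The named genes are the 10, *TRPV4*, the 3 others of each list that had the lowest adjusted p in each comparison, and the nearest pattern (mean of at least 1 CPM, prior count 2). Of these, 1 gene is not reported here. Sequence was read from hg38. Alternatives were DESeq2 1.42.0, edgeR's likelihood ratio test, upper quartile scaling, no filter, at least 10 counts in every sample, only 6 samples, a replicate block and each library left out. Deviations from group means correlated by -0.055 to 0.090 over 9 same-numbered pairs, so the numbers were not taken as pairs. Counting error does not cover amplification, since the reads carry no molecular identifiers.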

Additional observations from a re-analysis of the deposited data

How the results depend on the processing

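The number of the 10 genes called with viscosity, 3, was 6 with DESeq2, with edgeR's likelihood ratio test and with no filter on low counts, each time by adding *TGFBI*, *SMAD6* and *SKIL*, whose edgeR adjusted p-values lay just above the threshold. With 1 library left out in turn it ranged from 3 to 6, and the counts for the knockdown and for the third comparison from 7 to 9 and from 6 to 7. The pathway genes called ranged from 19 to 45 with viscosity, and all genes from 1409 to 4349 with viscosity and from 2179 to 3836 with the knockdown. With viscosity, all genes called numbered 1409, 1927 and 1418 without replicate 1 or 2 of SC cells at 0.77 cP or replicate 3 of SC cells at 8 cP, and with the knockdown 2361 and 2179 without replicate 1 or 2 of SC cells at 8 cP, against 3518 and 3649 with all libraries. These fits keep 2 libraries in 1 group and share the spread with the others. No direction of a call reversed. With the replicate block, 3, 8 and 7 of the 10 genes passed, *SKIL* in the knockdown comparison being lost (0.22, edgeR adjusted p = 0.0632), and all genes called numbered 3475, 3607 and 7731. The block changed no other call of the 10 genes. *SMAD3* between the outer groups passed with DESeq2 (adjusted p = 0.0431). *SMAD7* in that comparison did not pass with no filter (edgeR adjusted p = 0.0777) or with only its 6 samples (0.0791), and the cause was not tested. Depth limits *ID2*, *ID4*, *HEY1* and *TRPV4*, which had fewer than 500 counts in every library. They are not the only ones. *BMP2*, *INHBA*, *TGFB3*, *SMAD9*, *ENG* and *LUM* were at or below 4.15 CPM in every library. Over TMM, upper quartile and DESeq2 scaling, the median of all genes ranged from -0.016 to -0.0019 with viscosity, from -0.0051 to 0.0037 with the knockdown and from -0.026 to -0.0032 between the outer groups.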
